A study of Mus musculus with 10 samples.

Results

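The genes described here are 45 mouse genes of the heat shock response and the unfolded protein response. They comprise chaperones of the cytosol, the mitochondria and the endoplasmic reticulum (ER), their cofactors, and the sensors and transcription factors of ER stress. The members were read as the rows of the deposited count table whose Ensembl identifier maps to a listed symbol, and make up 45 of 55536 gene rows. That reading used no measured values, but the list was chosen with earlier results of these data known. All 45 were among the 20301 genes that passed the filter on low counts. The symbol Ddit3 also belongs to a further identifier, ENSMUSG00000116429, which had 0 counts in every library, so 46 rows were read and Ddit3 is given from ENSMUSG00000025408.

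The libraries hold ribosome-bound RNA from the part of the mouse primary somatosensory cortex that the labels call S1DZ. It was obtained by translating ribosome affinity purification (TRAP), in which antibodies against GFP pull down ribosomes that carry a GFP-tagged large-subunit protein, L10a. There were 3 libraries of Il17rb-Cre mice, 3 of Il17ra-Cre mice and 4 of Il17rc-Cre mice, each driver naming a subunit of the interleukin-17 receptor family. Mice of all 3 genotypes carried the same virus, AAV5-EF1α-Flex-EGFPL10a, which makes the tagged protein only where Cre is active, and the tissue was taken 4 weeks after injecting 400 nl per side at 0.1 µl per minute. The tagged cells are thus those that the virus reached and in which the driver was active. Whether the replicates are different animals is not in the labels, and p-values therefore measure only how these samples spread. The sources used here give no age, sex or strain. All values come from bulk RNA, in which fewer cells of a type and less RNA per cell cannot be told apart.

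Chaperones of the HSP70 family bind exposed hydrophobic stretches of unfolded proteins in a cycle driven by ATP, which J proteins start and nucleotide exchange factors reset. HSP90 acts later on partly folded clients, and small heat shock proteins hold unfolded proteins without ATP. In the cytosol, unfolded protein frees heat shock factor 1 (HSF1) to bind heat shock elements in the promoters of chaperone genes. In the ER, unfolded protein draws the chaperone BiP away from the sensors IRE1, PERK and ATF6, which act through XBP1, ATF4 and cleaved ATF6, and promoters of ER chaperones carry ER stress elements that ATF6 and XBP1 bind. Neurons are known for a high threshold for inducing the classical heat shock genes, whereas glia induce them readily.

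Promoter stretches are shown for members whose levels are described below, with the stress element that each carries. Other members searched carry neither kind of element. RefSeq promoters (GRCm38.p6, 250 bases before to 50 after the start) were found for 36 of the 45 members, and 32544 distinct promoters were searched on both strands. The ER stress element, CCAAT and CCACG with 9 bases between, occurred in 7 members, all of them ER chaperones or folding enzymes, and in 0.12% of all promoters. The 7 were Calr, Canx, Creld2, Dnajc3, Hsp90b1, Hspa5 and Pdia6. The related ER stress element II, ATTGG and CCACG with 1 base between, occurred in Herpud1 and Dnajb11 and in 0.0369% of all promoters. Capitals mark the fixed letters of the element, on either strand, in windows that lie before the gene's RefSeq start and read 5′ to 3′ along the gene. GENCODE, from which gene spans are given below, places the start of Hspa5, Dnaja1 and Dnajb6 before the window. It also places the start of Hspd1 before the stretch that Hspd1 shares with Hspe1.
Hspa5 (chr2:34772015-34772053, plus strand): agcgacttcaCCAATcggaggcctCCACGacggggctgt
Dnajc3 (chr14:118937817-118937855, plus strand): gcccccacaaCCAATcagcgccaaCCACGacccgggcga
Canx (chr11:50325790-50325828, minus strand): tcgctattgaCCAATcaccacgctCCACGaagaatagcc
Calr (chr8:84847065-84847103, minus strand): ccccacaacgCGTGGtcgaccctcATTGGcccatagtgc
Creld2 (chr15:88819510-88819548, plus strand): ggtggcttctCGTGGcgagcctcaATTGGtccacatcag
Pdia6 (chr12:17266481-17266519, plus strand): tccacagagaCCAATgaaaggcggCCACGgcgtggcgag
Herpud1 (chr8:94386367-94386397, plus strand): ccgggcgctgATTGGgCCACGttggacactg

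The paired heat shock unit GAANNTTC occurred in 10 members (7.89% of all promoters), TTCNNGAA in 6 members (8.55%) and the run of 3 units, GAA, TTC and GAA with 2 bases between each and so containing both pairs, in 4 members (0.608%). The 4 were Dnajb6, Hspd1, Hspe1 and Hsph1. Hspd1 and Hspe1 lie head to head and share 1 stretch, shown along Hspe1. Hspa1a and Hspa1b have the same letters in this window, shown for Hspa1a. The amino acid response element core TGATGNAA occurred in Herpud1 (3.91% of all promoters) and the ATF6 site TGACGTGG in no member (0.682%). A match is a description of letters and not a measured binding site. Capitals mark the units.
Hspb1 (chr5:135887792-135887839, plus strand): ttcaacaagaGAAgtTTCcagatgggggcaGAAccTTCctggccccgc
Hspa1a (chr17:34972243-34972270, minus strand): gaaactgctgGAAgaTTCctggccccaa
Dnajb6 (chr5:29735842-29735874, plus strand): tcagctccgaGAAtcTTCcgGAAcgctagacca
Dnaja1 (chr4:40722334-40722361, plus strand): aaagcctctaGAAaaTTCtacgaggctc
Hspe1 (chr1:55088049-55088086, plus strand): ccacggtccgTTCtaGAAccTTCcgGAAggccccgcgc

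Total counts ran between 39692925 and 165844244 per library, the highest being Il17ra-Cre replicate 3. The transcript of the Il17rb driver gene was low everywhere and not higher with its own driver: 0.657, 0.614 and 0.872 CPM (TMM-scaled counts relative to library size) in Il17rb-Cre libraries, against 1.75, 1.27 and 3.75 CPM in Il17ra-Cre and 0.782, 1.49, 0.067 and 2.72 CPM in Il17rc-Cre libraries. Il17ra had 18.0 to 30.7 CPM in Il17rb-Cre, 16.7 to 21.4 CPM in Il17ra-Cre and 15.6 to 21.7 CPM in Il17rc-Cre libraries, and Il17rc had 1.03 to 3.19 CPM in Il17rb-Cre, 21.4 to 41.2 CPM in Il17ra-Cre and 20.3 to 39.9 CPM in Il17rc-Cre libraries. Il17ra-Cre libraries differed among themselves: Rpl10a, the gene of the tagged protein, had 669.6, 602 and 665 CPM in Il17rb-Cre, 58.7, 70.9 and 679 CPM in Il17ra-Cre and 267, 191, 266 and 228 CPM in Il17rc-Cre libraries. Among Il17rc-Cre libraries, replicates 2 and 4 had more oligodendrocyte and microglial RNA than replicates 1 and 3. Members are therefore also given without Il17ra-Cre replicates 1 and 2, which leaves 1 library of that group, and without Il17rc-Cre replicates 1 and 3.

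Cell type markers differed along with the members. Of 13 excitatory neuron markers 11 were higher in Il17rb-Cre libraries than in either other group, with summed levels of 18040 to 21070 CPM in Il17rb-Cre, against 1649 to 6856 CPM in Il17ra-Cre and 2320 to 3714 CPM in Il17rc-Cre libraries. All 12 astrocyte markers were lower in Il17rb-Cre than in either group (summed 652 to 668 CPM, against 7069 to 13760 CPM in Il17ra-Cre and 11620 to 18180 CPM in Il17rc-Cre). All 12 oligodendrocyte markers were lower in Il17rb-Cre than in Il17ra-Cre, and 1 of 12 was lower than in Il17rc-Cre (summed 1033 to 1195 CPM, against 5459 to 45910 CPM in Il17ra-Cre and 1064 to 4070 CPM in Il17rc-Cre). All 12 microglial markers were lower in Il17rb-Cre than in Il17ra-Cre and 9 of 12 were lower than in Il17rc-Cre, summing to 21.5 to 28.9 CPM in Il17rb-Cre, against 859 to 1695 CPM in Il17ra-Cre and 44.6 to 258 CPM in Il17rc-Cre libraries, and Itgam and Mrc1 were at 0 in all Il17rb-Cre libraries. Of 10 pan-neuronal markers 8 were higher in Il17rb-Cre than in either group, and 1 (Tubb3) was lower than in Il17ra-Cre. Of 12 inhibitory neuron markers 7 were higher and 1 lower (Erbb4) than in Il17ra-Cre, and 3 higher and 1 lower (Gad2) than in Il17rc-Cre. Lower in Il17rb-Cre than in Il17ra-Cre and Il17rc-Cre were also 7 and 6 of 8 oligodendrocyte precursor markers, 4 and 7 of 10 endothelial markers and 10 and 12 of 12 mural markers. In Il17ra-Cre against Il17rc-Cre, 10 of 12 oligodendrocyte and 6 of 12 microglial markers were higher and 3 of 12 mural markers lower. The part of these cell types in the differences below was not tested.

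Il17rb-Cre libraries held less mRNA of small heat shock proteins, of Bag3 and of part of the ER chaperones than libraries of either other driver, and more of Hspa12a, Hsph1, Dnajb5, Dnajb6 and Herpud1. Against Il17ra-Cre, 26 of 45 members were lower and 5 higher in Il17rb-Cre by edgeR's quasi-likelihood test at an adjusted p under 0.05, where 24.4% and 16.4% of all genes tested were called lower and higher (40.7% in all). Against Il17rc-Cre, 15 members were lower and 12 higher, where 21.9% and 17.7% of all genes were (39.7% in all). Some of these calls, such as Hsph1 against Il17ra-Cre and Cryab, Hspa5, Pdia4 and Manf against Il17rc-Cre, were lost in several fits without 1 library. Between Il17ra-Cre and Il17rc-Cre, 4 members were higher in Il17ra-Cre and 0 were lower, where 1.38% and 0.798% of all genes were (2.18% in all). The count of 0 stands beside 22 members with an unadjusted p under 0.05 in either direction, as had 3730 of the 20301 genes tested. DESeq2 and limma voom also called 0 members lower. The median log2 fold change of the members was -0.69, -0.30 and 0.41 in these 3 comparisons, beside -0.09, 0.02 and 0.03 over all genes. The comparisons share libraries and are not independent of each other. CPM of the groups did not overlap for 34, 30 and 12 members, beside 53.8%, 53.0% and 14.6% of all genes.

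**Figure D1:**
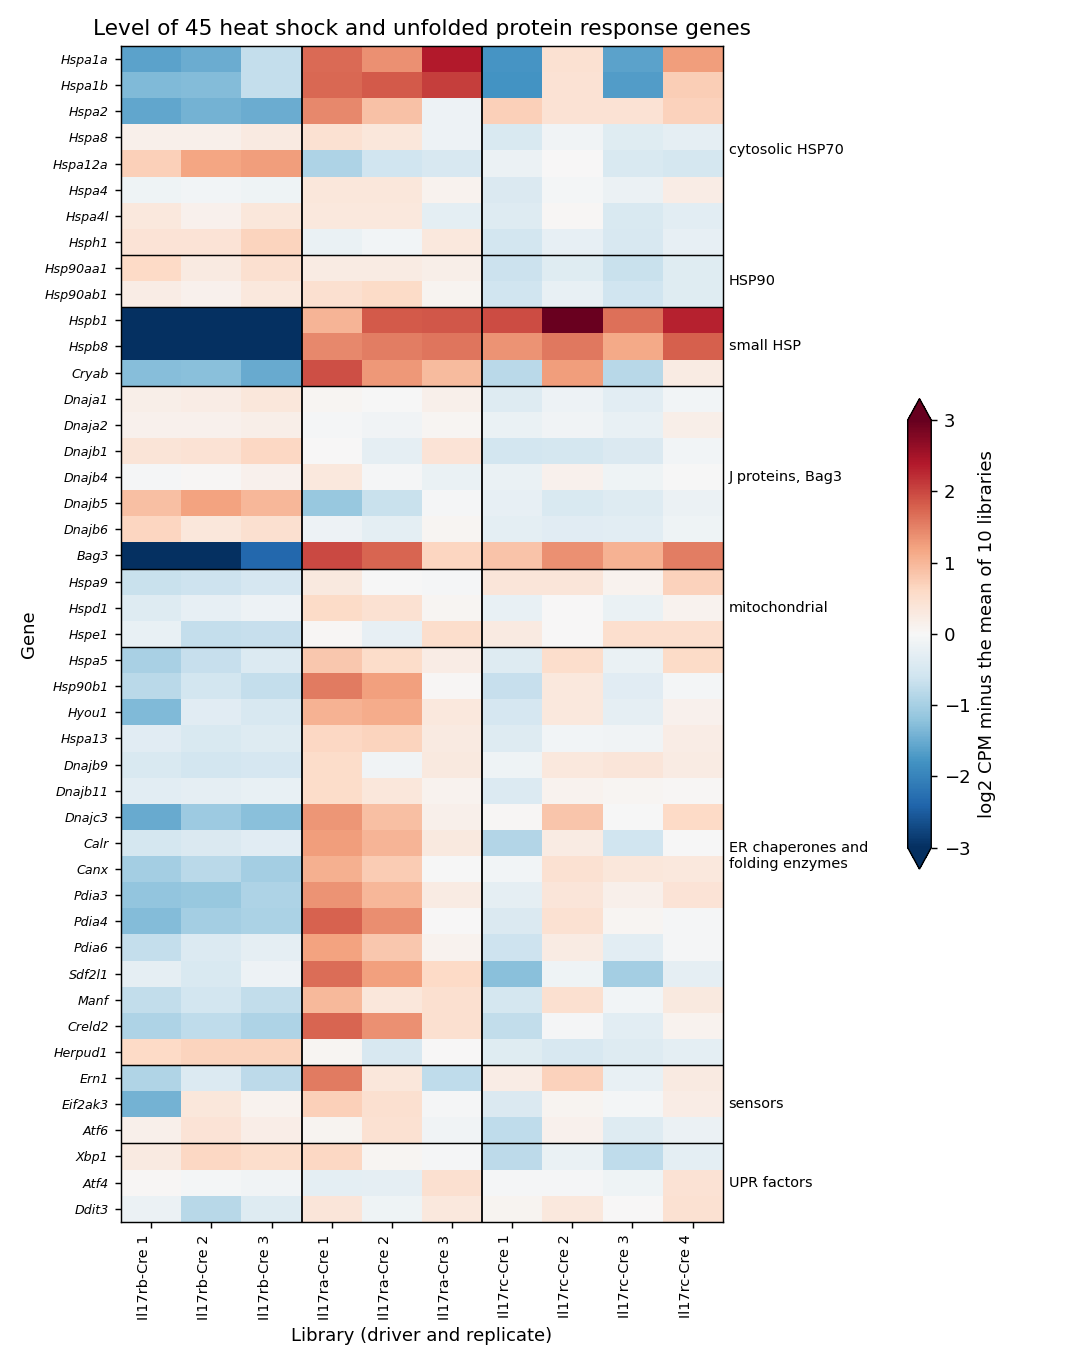
Rows are the 45 genes by role, columns the 10 libraries by driver and replicate, and color is log2 CPM minus the mean of the gene over the 10 libraries. Hspb1, Hspb8 and Bag3 are dark blue in the 3 Il17rb-Cre columns, ER chaperones are lighter blue there and mostly red in Il17ra-Cre replicates 1 and 2, and Hspa12a, Dnajb5 and Herpud1 are reddest in Il17rb-Cre.

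**Figure D2:**
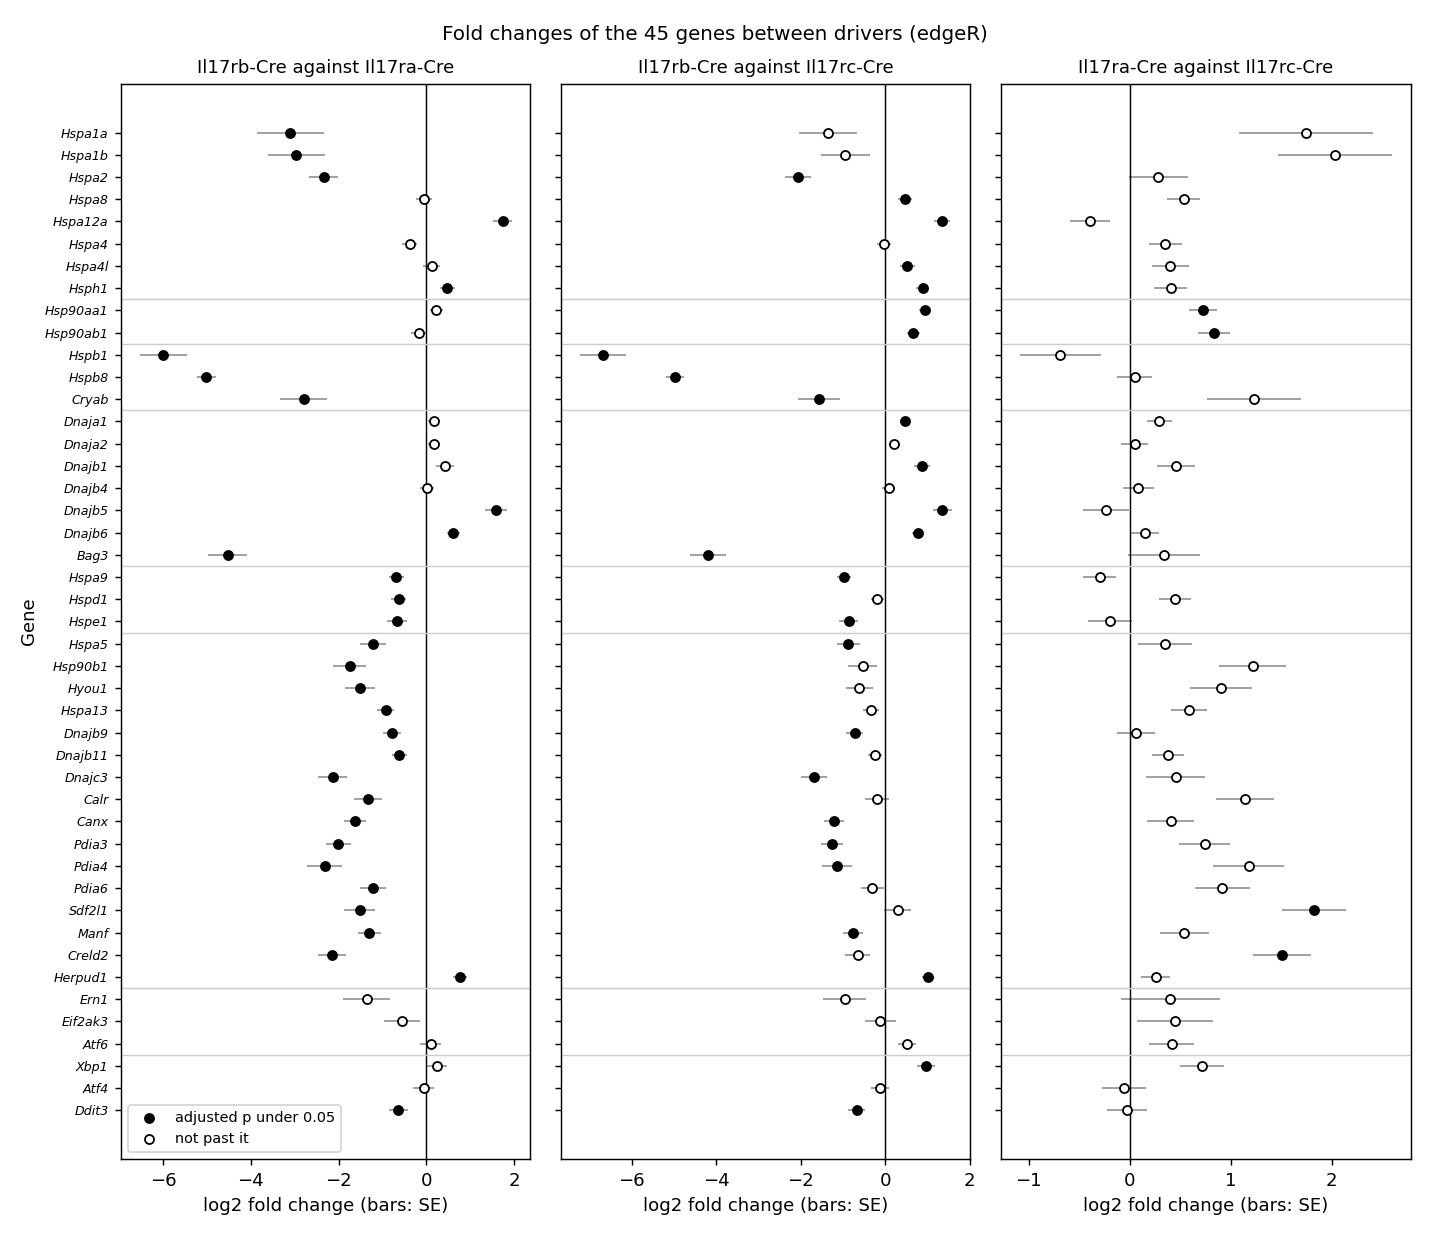
Points are log2 fold changes of the 45 genes in the 3 comparisons with SE bars, filled where the adjusted p is under 0.05, with each panel on its own horizontal scale. In Il17rb-Cre against Il17ra-Cre the filled points run between -6.00 (Hspb1) and 1.73 (Hspa12a).

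Among cytosolic HSP70 proteins and their exchange factors (8 members), the inducible genes and Hspa2 were lower in Il17rb-Cre while Hspa12a and Hsph1 were higher. Hspa1a, a stress-inducible HSP70, had 3.21, 3.46 and 5.88 CPM in Il17rb-Cre libraries, against 31.5, 25.3 and 50.9 CPM in Il17ra-Cre and 2.86, 13.3, 3.19 and 23.3 CPM in Il17rc-Cre libraries. Its neighbour and near-copy Hspa1b had 8.35, 8.44 and 12.7 CPM in Il17rb-Cre libraries, against 69.1, 74.5 and 87.0 CPM in Il17ra-Cre and 5.99, 28.0, 6.49 and 34.8 CPM in Il17rc-Cre libraries. Every Il17ra-Cre library lay above every other library for both genes, and Il17rc-Cre replicates 2 and 4 lay above replicates 1 and 3. The log2 fold change of Il17rb-Cre against Il17ra-Cre was -3.10 ± 0.77 (SE, adjusted p = 0.00925) for Hspa1a and -2.97 ± 0.65 (SE, adjusted p = 0.00484) for Hspa1b. Against Il17rc-Cre neither passed (adjusted p = 0.147 and 0.224), although both did when Il17rc-Cre replicates 1 and 3 were left out. Of the 50-base stretches of the Hspa1a transcript, 58.8% also occur in Hspa1b, so reads on the pair may be assigned to either gene or lost. Hspa2, an HSP70 best known from testis, had 24.4, 26.9 and 25.7 CPM in Il17rb-Cre libraries, against 194, 131 and 64.7 CPM in Il17ra-Cre and 118, 97.5, 96.5 and 115 CPM in Il17rc-Cre libraries. All Il17rb-Cre values were lowest, with log2 fold changes of -2.34 ± 0.33 (SE, adjusted p = 0.000428) against Il17ra-Cre and -2.06 ± 0.31 (SE, adjusted p = 0.000632) against Il17rc-Cre. The Hspa2 value against Il17ra-Cre was -1.32 when replicates 1 and 2 of that group were left out.

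Hspa12a, a distant HSP70 relative, had 108, 149.9 and 156 CPM in Il17rb-Cre libraries, against 34.3, 43.2 and 46.7 CPM in Il17ra-Cre and 58.5, 66.0, 47.5 and 45.5 CPM in Il17rc-Cre libraries. The 3 Il17rb-Cre libraries were highest, with log2 fold changes of 1.73 ± 0.21 (SE, adjusted p = 0.000203) against Il17ra-Cre and 1.34 ± 0.19 (SE, adjusted p = 0.000454) against Il17rc-Cre. Hsph1, an HSP110 exchange factor, had 303, 303 and 362 CPM in Il17rb-Cre libraries, against 199, 214 and 281 CPM in Il17ra-Cre and 154, 191, 162 and 191 CPM in Il17rc-Cre libraries. The groups did not overlap, with Il17ra-Cre between the others, and Hsph1 was higher by a log2 fold change of 0.89 ± 0.16 (SE, adjusted p = 0.00179) against Il17rc-Cre and 0.48 ± 0.17 (SE, adjusted p = 0.0493) against Il17ra-Cre. The Hsph1 call against Il17ra-Cre was lost without any 1 library other than Il17ra-Cre replicate 3 (log2 fold change 0.38 to 0.53, adjusted p 0.0587 to 0.162) and was 0.21 without Il17ra-Cre replicates 1 and 2.

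Hspa8, the constitutive HSP70 and a clathrin uncoating enzyme, had 2061, 2058 and 2242 CPM in Il17rb-Cre libraries, against 2581, 2347 and 1683 CPM in Il17ra-Cre and 1352, 1739, 1451 and 1547 CPM in Il17rc-Cre libraries. The Il17rb-Cre libraries lay inside the Il17ra-Cre range (adjusted p = 0.828) and above all Il17rc-Cre libraries, with a log2 fold change of 0.48 ± 0.17 (SE, adjusted p = 0.043). Hspa4l, a further HSP110 relative, had 124, 110.5 and 127 CPM in Il17rb-Cre libraries, against 125, 125 and 82.2 CPM in Il17ra-Cre and 76.7, 102, 73.7 and 81.4 CPM in Il17rc-Cre libraries. Its values overlapped between Il17rb-Cre and Il17ra-Cre and were higher in Il17rb-Cre than in Il17rc-Cre, with a log2 fold change of 0.53 ± 0.18 (SE, adjusted p = 0.0418). Both calls against Il17rc-Cre were lost without any 1 library other than Il17ra-Cre replicate 3 and Il17rc-Cre replicate 2 (Hspa8 adjusted p 0.0514 to 0.20, Hspa4l 0.0628 to 0.178). Hspa4, the remaining exchange factor, ranged over 57.5 to 97.8 CPM in the 10 libraries and did not pass edgeR's test, while voom called it in Il17rb-Cre against Il17ra-Cre and in Il17ra-Cre against Il17rc-Cre.

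Both cytosolic HSP90 genes were higher in Il17rb-Cre, and also in Il17ra-Cre, than in Il17rc-Cre libraries. Hsp90aa1, the inducible form, had 1552, 1237 and 1430 CPM in Il17rb-Cre libraries, against 1225, 1220 and 1167 CPM in Il17ra-Cre and 659, 804, 649.9 and 804 CPM in Il17rc-Cre libraries. Hsp90ab1, the constitutive form, had 2093, 1982 and 2239 CPM in Il17rb-Cre libraries, against 2503, 2686 and 1920 CPM in Il17ra-Cre and 1184, 1534, 1183 and 1402 CPM in Il17rc-Cre libraries. For both genes the Il17rc-Cre libraries were the 4 lowest of the 10. Against Il17rc-Cre, Il17rb-Cre was higher by a log2 fold change of 0.95 ± 0.14 (SE, adjusted p = 0.000537) for Hsp90aa1 and 0.67 ± 0.16 (SE, adjusted p = 0.00802) for Hsp90ab1, and Il17ra-Cre by 0.72 ± 0.14 (SE, adjusted p = 0.039) for Hsp90aa1 and 0.84 ± 0.16 (SE, adjusted p = 0.0384) for Hsp90ab1. Il17rb-Cre against Il17ra-Cre gave adjusted p = 0.262 for Hsp90aa1 and 0.459 for Hsp90ab1, which does not show that the levels were alike, and voom called Hsp90ab1. The calls of Il17ra-Cre against Il17rc-Cre were lost in 8 of the 10 fits without 1 library and in the fit of only these groups. The Hsp90ab1 call of Il17rb-Cre against Il17rc-Cre was lost without Il17rb-Cre replicate 3 (0.56, adjusted p = 0.0549) and without Il17rc-Cre replicates 1 and 3 together (0.47, adjusted p = 0.0973). Of the 50-base stretches of Hsp90aa1 and Hspa8, 58.5% and 52.7% also occur in other annotated genes, so part of their reads may have been lost or assigned elsewhere.

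All 3 small heat shock proteins were lower in Il17rb-Cre than in either other group, and Hspb1 and Hspb8 had the largest fold changes of all members. Hspb1 (ENSMUSG00000004951, chr5:135887919-135889563, all coordinates on GRCm38), the mouse form of HSP27, had 0.957, 0.307 and 0.886 CPM in Il17rb-Cre libraries, against 30.0, 52.6 and 53.4 CPM in Il17ra-Cre and 57.3, 115, 46.6 and 72.7 CPM in Il17rc-Cre libraries. Hspb8 (ENSMUSG00000041548, chr5:116408491-116422864), which works with Bag3 in the disposal of misfolded protein, had 4.84, 4.88 and 3.93 CPM in Il17rb-Cre libraries, against 139, 147 and 155 CPM in Il17ra-Cre and 129, 152, 112 and 176 CPM in Il17rc-Cre libraries. Cryab, αB-crystallin, had 349.8, 358 and 299 CPM in Il17rb-Cre libraries, against 3261, 2083 and 1644 CPM in Il17ra-Cre and 486, 2010, 477 and 1004 CPM in Il17rc-Cre libraries. In all 3 genes the Il17rb-Cre libraries were the lowest and did not overlap either group.

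Hspb1 was lower at a log2 fold change of -6.00 ± 0.53 (SE, adjusted p = 3.3e-05) against Il17ra-Cre and -6.68 ± 0.54 (SE, adjusted p = 1.4e-05) against Il17rc-Cre. Hspb8 was lower at a log2 fold change of -5.01 ± 0.21 (SE, adjusted p = 1.72e-06) against Il17ra-Cre and -4.96 ± 0.21 (SE, adjusted p = 7.69e-07) against Il17rc-Cre. Cryab was lower at a log2 fold change of -2.79 ± 0.54 (SE, adjusted p = 0.00247) against Il17ra-Cre and -1.57 ± 0.49 (SE, adjusted p = 0.0286) against Il17rc-Cre. In Il17rc-Cre, Cryab followed the split between replicates 2 and 4 and replicates 1 and 3 that the oligodendrocyte marker Mbp also shows (385, 1549, 269.8 and 772 CPM), and its part in the Cryab result was not tested. The Cryab call against Il17rc-Cre was lost without each Il17rb-Cre replicate, without Il17rc-Cre replicate 2 (-0.97) and without Il17rc-Cre replicate 4 (adjusted p 0.0523 to 0.0837), and was -2.21 (adjusted p = 0.00308) without Il17rc-Cre replicates 1 and 3. Of the 50-base stretches of Hspb1, 51.6% also occur in a pseudogene, Hsp25-ps1, and 19.0% of those of Cryab in Hspb2, which overlaps it.

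Bag3 (ENSMUSG00000030847, chr7:128523616-128546981), a cofactor that links HSP70 and small heat shock proteins to autophagy, differed like its partners. Bag3 had 2.25, 2.86 and 5.38 CPM in Il17rb-Cre libraries, against 108, 92.2 and 42.5 CPM in Il17ra-Cre and 49.3, 70.4, 56.6 and 79.7 CPM in Il17rc-Cre libraries. The highest Il17rb-Cre library held 5.38 CPM and the lowest of the other 7 libraries held 42.5 CPM. The log2 fold change was -4.53 ± 0.45 (SE, adjusted p = 5.96e-05) against Il17ra-Cre and -4.19 ± 0.43 (SE, adjusted p = 6.04e-05) against Il17rc-Cre. Against Il17ra-Cre it was -3.58 when replicates 1 and 2 of that group were left out. Astrocyte and microglial markers were lower in the same libraries, as given above.

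**Figure D3:**
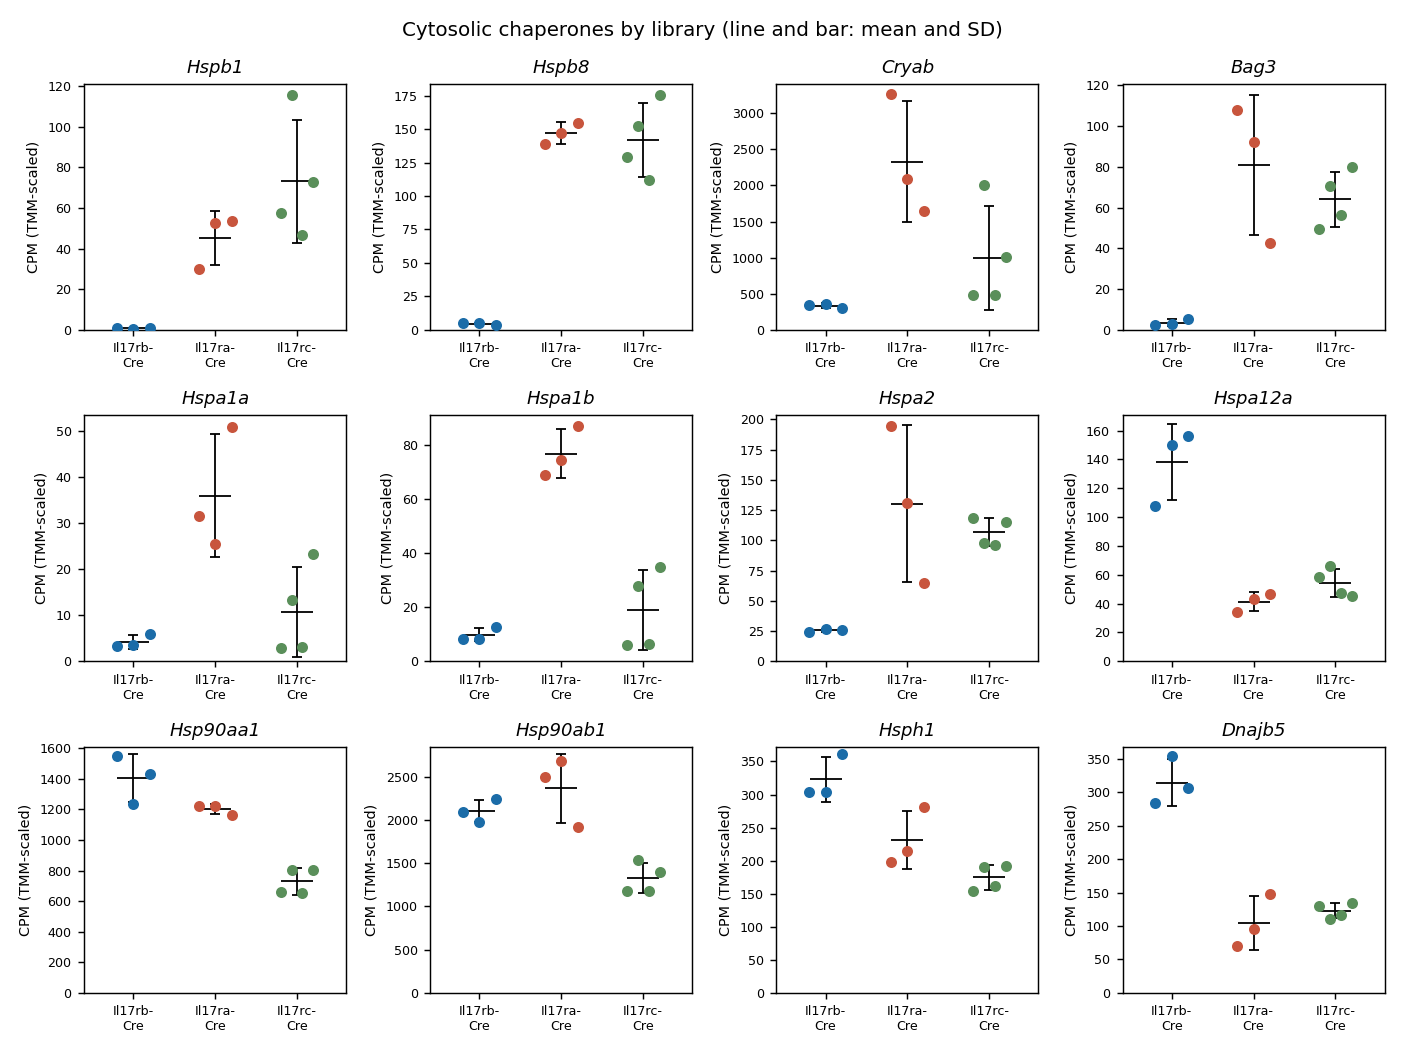
CPM of cytosolic members by library, points being libraries and lines and bars the mean and SD of each driver (3, 3 and 4 libraries), each panel with its own axis starting at 0. Hspb1, Hspb8 and Bag3 lie near 0 in Il17rb-Cre, with at most 0.957, 4.88 and 5.38 CPM, while Hspa12a and Dnajb5 are highest there.

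Of the 6 cytosolic J proteins, which deliver clients to HSP70, Dnajb5 and Dnajb6 were higher in Il17rb-Cre than in either group, and none was lower. Dnajb5 had 284, 354 and 306 CPM in Il17rb-Cre libraries, against 69.5, 95.5 and 148 CPM in Il17ra-Cre and 129, 111, 117 and 135 CPM in Il17rc-Cre libraries. Dnajb6, known for holding back polyglutamine aggregation, had 294, 239.7 and 262 CPM in Il17rb-Cre libraries, against 168, 154 and 197 CPM in Il17ra-Cre and 154, 148, 150.2 and 171 CPM in Il17rc-Cre libraries. In both genes the Il17rb-Cre libraries were the 3 highest. Dnajb5 was higher by a log2 fold change of 1.59 ± 0.25 (SE, adjusted p = 0.000792) against Il17ra-Cre and 1.35 ± 0.23 (SE, adjusted p = 0.0011) against Il17rc-Cre. Dnajb6 was higher by a log2 fold change of 0.61 ± 0.15 (SE, adjusted p = 0.00776) against Il17ra-Cre and 0.77 ± 0.14 (SE, adjusted p = 0.00154) against Il17rc-Cre, and its value against Il17ra-Cre was 0.44 (adjusted p = 0.117) without Il17ra-Cre replicates 1 and 2. Excitatory neuron markers were higher in the same libraries (11 of 13), and their part was not tested.

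Dnajb1, an HSF1 target that pairs with HSP70, had 168, 174 and 197 CPM in Il17rb-Cre libraries, against 128, 106 and 170.3 CPM in Il17ra-Cre and 88.2, 88.5, 94.7 and 122 CPM in Il17rc-Cre libraries. Dnaja1 had 419, 434 and 468 CPM in Il17rb-Cre libraries, against 386, 370.3 and 411 CPM in Il17ra-Cre and 285, 335, 299 and 351 CPM in Il17rc-Cre libraries. The Il17rb-Cre libraries were above all Il17rc-Cre libraries in both genes, with log2 fold changes of 0.87 ± 0.19 (SE, adjusted p = 0.00454) for Dnajb1 and 0.47 ± 0.13 (SE, adjusted p = 0.0142) for Dnaja1. Neither passed against Il17ra-Cre (adjusted p = 0.126 and 0.327), although voom called both and edgeR called Dnajb1 without Il17ra-Cre replicate 3. Without Il17rc-Cre replicates 1 and 3 both calls were lost (0.73, adjusted p = 0.0615, and 0.31, adjusted p = 0.166), and that of Dnaja1 also without Il17rb-Cre replicate 2 (0.43, adjusted p = 0.0727) or replicate 3 (0.36, adjusted p = 0.11). Dnaja2 (248 to 329 CPM) and Dnajb4 (70.0 to 100.2 CPM) did not pass edgeR's test in any comparison, while voom called Dnaja2 in Il17rb-Cre against Il17rc-Cre. Dnajb6 and Dnaja1 share 42.8% and 28.8% of their 50-base stretches with other annotated genes.

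The 3 mitochondrial chaperones were lower in Il17rb-Cre by less than 1 log2 unit. Hspa9, mortalin, the HSP70 of the matrix, had 234, 242 and 261 CPM in Il17rb-Cre libraries, against 455, 368 and 362 CPM in Il17ra-Cre and 472, 476, 397 and 595 CPM in Il17rc-Cre libraries. Hspd1, the chaperonin HSP60, had 172, 188 and 202 CPM in Il17rb-Cre libraries, against 334, 306 and 232 CPM in Il17ra-Cre and 192, 224, 194 and 241 CPM in Il17rc-Cre libraries, and its cofactor Hspe1, from the shared promoter shown above, had 159.7, 115 and 115 CPM in Il17rb-Cre libraries, against 192, 157 and 269.8 CPM in Il17ra-Cre and 225, 189, 264 and 266 CPM in Il17rc-Cre libraries. The Il17rb-Cre libraries lay below all others for Hspa9, while Il17rb-Cre and Il17ra-Cre overlapped for Hspe1. Hspa9 was lower at a log2 fold change of -0.69 ± 0.17 (SE, adjusted p = 0.0102) against Il17ra-Cre and -0.98 ± 0.17 (SE, adjusted p = 0.00116) against Il17rc-Cre, and Hspe1 at -0.67 ± 0.23 (SE, adjusted p = 0.043) against Il17ra-Cre and -0.86 ± 0.22 (SE, adjusted p = 0.0116) against Il17rc-Cre. Hspd1 was lower at a log2 fold change of -0.63 ± 0.17 (SE, adjusted p = 0.0143) against Il17ra-Cre and did not pass against Il17rc-Cre (adjusted p = 0.396).

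Against Il17ra-Cre the Hspd1 and Hspe1 calls, but not that of Hspa9, were lost when certain single libraries were left out. That of Hspe1 was lost when Il17ra-Cre replicate 1 or 3 (-0.71 and -0.43), Il17rb-Cre replicate 2 or 3, or Il17rc-Cre replicate 1, 3 or 4 was left out (adjusted p 0.0518 to 0.135). That of Hspd1 was lost when Il17ra-Cre replicate 1 or Il17rb-Cre replicate 1 or 2 was left out (adjusted p 0.0502 to 0.0622), and 44.8% of its 50-base stretches also occur in other annotated genes. Without Il17ra-Cre replicates 1 and 2 together Hspe1 was -1.05 (adjusted p = 0.0203), and Hspa9 and Hspd1 were -0.55 and -0.29 and did not pass.

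ER chaperones and folding enzymes formed the largest role, with 16 members, and all except Herpud1 were lower in Il17rb-Cre than in Il17ra-Cre. Against Il17ra-Cre 15 were lower and 1 higher, with groups that did not overlap in all 16. Over all genes 24.4% were lower, 16.4% were higher and 53.8% did not overlap. Against Il17rc-Cre 7 were lower, 1 was higher and 8 did not pass, and groups did not overlap in 9. There 21.9% of all genes were lower, 17.7% were higher and 53.0% did not overlap. The median log2 fold change was -1.42 against Il17ra-Cre and -0.63 against Il17rc-Cre, beside -0.09 and 0.02 over all genes. Summed over the 16 genes, levels were 1033, 1155 and 1215 CPM in Il17rb-Cre, against 3787, 3030 and 1953 CPM in Il17ra-Cre and 1276, 2172, 1588 and 2027 CPM in Il17rc-Cre libraries. Il17ra-Cre replicate 3 was thus the lowest of its group, and it was also lowest in oligodendrocyte markers (5459 CPM, against 45910 and 31380 CPM in replicates 1 and 2). The same held for astrocyte (7069 CPM, against 13760 and 13060 CPM), microglial (859 CPM, against 1118 and 1695 CPM), oligodendrocyte precursor and endothelial markers. Replicate 3 was highest of its group in excitatory neuron (6856 CPM, against 1649 and 1875 CPM), pan-neuronal and mural markers, and between the others in inhibitory neuron markers. The part of these cell types was not tested. Without replicates 1 and 2, 8 of the 16 calls against Il17ra-Cre were kept, and all 16 were kept without replicate 3.

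Hspa5 (ENSMUSG00000026864, chr2:34771970-34777547), BiP, the ER HSP70 that also holds the stress sensors, had 163, 199.5 and 241 CPM in Il17rb-Cre libraries, against 562, 469 and 374 CPM in Il17ra-Cre and 247, 466, 280.2 and 480.1 CPM in Il17rc-Cre libraries. Its log2 fold change was -1.22 ± 0.29 (SE, adjusted p = 0.00759) against Il17ra-Cre and -0.87 ± 0.27 (SE, adjusted p = 0.0284) against Il17rc-Cre. Il17rc-Cre replicates 1 and 3 lay just above the highest Il17rb-Cre library, and replicates 2 and 4 well above it. The call against Il17rc-Cre was lost without Il17rb-Cre replicate 1 (-0.79) or 2 (-0.92) and without Il17rc-Cre replicate 2 (-0.74) or 4 (-0.72), with adjusted p 0.0684 to 0.0929. Hsp90b1, the ER form of HSP90, had 58.8, 70.5 and 63.0 CPM in Il17rb-Cre libraries, against 303, 239.5 and 106 CPM in Il17ra-Cre and 63.2, 128, 81.0 and 99.1 CPM in Il17rc-Cre libraries. It was lower at a log2 fold change of -1.75 ± 0.37 (SE, adjusted p = 0.00387) against Il17ra-Cre, at -0.71 (adjusted p = 0.17) without Il17ra-Cre replicates 1 and 2, and did not pass against Il17rc-Cre (adjusted p = 0.236) except in the fit of only those groups.

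Hyou1, a large HSP70 of the ER that exchanges nucleotide on BiP, had 4.47, 8.88 and 8.13 CPM in Il17rb-Cre libraries, against 23.3, 24.2 and 14.0 CPM in Il17ra-Cre and 7.90, 14.1, 9.39 and 12.3 CPM in Il17rc-Cre libraries. Hspa13, a microsomal HSP70, had 15.1, 14.0 and 14.7 CPM in Il17rb-Cre libraries, against 29.5, 30.4 and 23.1 CPM in Il17ra-Cre and 14.8, 18.1, 18.0 and 22.5 CPM in Il17rc-Cre libraries. Both were lower in Il17rb-Cre than in Il17ra-Cre, with log2 fold changes of -1.51 ± 0.34 (SE, adjusted p = 0.00559) and -0.92 ± 0.19 (SE, adjusted p = 0.00404), and did not pass against Il17rc-Cre (adjusted p = 0.151 and 0.175). When Il17ra-Cre replicates 1 and 2 were left out, the values were -0.95 and -0.65 and did not pass.

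The ER lectin chaperones hold glycoproteins until they are folded. Canx, calnexin, had 107, 123 and 105 CPM in Il17rb-Cre libraries, against 450.5, 367 and 214 CPM in Il17ra-Cre and 205, 294, 272 and 267 CPM in Il17rc-Cre libraries. Calr, calreticulin, had 168, 179 and 190.5 CPM in Il17rb-Cre libraries, against 572, 489 and 296 CPM in Il17ra-Cre and 131, 288, 161 and 239.7 CPM in Il17rc-Cre libraries. Pdia3, the disulfide isomerase that works with them, had 112, 116 and 135 CPM in Il17rb-Cre libraries, against 646, 512 and 304 CPM in Il17ra-Cre and 212, 331, 283 and 340 CPM in Il17rc-Cre libraries. Canx and Pdia3 separated the Il17rb-Cre libraries from all others, whereas Calr overlapped between Il17rb-Cre and Il17rc-Cre. Canx was lower at a log2 fold change of -1.62 ± 0.26 (SE, adjusted p = 0.000836) against Il17ra-Cre and -1.22 ± 0.24 (SE, adjusted p = 0.003) against Il17rc-Cre. Pdia3 was 4.01-fold lower against Il17ra-Cre (SE 0.28 on the log2 scale, adjusted p = 0.000418) and 2.40-fold lower against Il17rc-Cre (SE 0.26, adjusted p = 0.00368). Calr was lower at a log2 fold change of -1.33 ± 0.32 (SE, adjusted p = 0.0075) against Il17ra-Cre alone (adjusted p = 0.635 against Il17rc-Cre). Without Il17ra-Cre replicates 1 and 2, the values against Il17ra-Cre were -0.93 for Canx and -1.31 for Pdia3, both past the threshold, and -0.71 for Calr, which was not.

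Pdia4 and Pdia6, further disulfide isomerases, differed in the same direction against Il17ra-Cre. Pdia4 had 24.9, 30.5 and 32.1 CPM in Il17rb-Cre libraries, against 211, 163 and 62.4 CPM in Il17ra-Cre and 46.0, 85.1, 64.7 and 60.7 CPM in Il17rc-Cre libraries. Pdia6 had 81.3, 99.5 and 111 CPM in Il17rb-Cre libraries, against 306, 231 and 142 CPM in Il17ra-Cre and 86.5, 157, 106 and 130.1 CPM in Il17rc-Cre libraries. Il17ra-Cre replicates 1 and 2 were the 2 highest libraries for both. Pdia4 was lower at a log2 fold change of -2.32 ± 0.40 (SE, adjusted p = 0.00131) against Il17ra-Cre and -1.14 ± 0.36 (SE, adjusted p = 0.0312) against Il17rc-Cre, and Pdia6 at -1.22 ± 0.30 (SE, adjusted p = 0.0083) against Il17ra-Cre. The Pdia4 call against Il17rc-Cre was lost without each Il17rb-Cre replicate and without Il17rc-Cre replicate 2, 3 or 4 (log2 fold change -0.97 to -1.27, adjusted p 0.0517 to 0.099). Without Il17ra-Cre replicates 1 and 2, Pdia4 was -1.08 (adjusted p = 0.0361) and Pdia6 -0.54 (adjusted p = 0.272) against Il17ra-Cre.

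The ER J proteins guide BiP to its clients. Dnajc3, which also binds unfolded protein itself, had 18.4, 24.6 and 21.9 CPM in Il17rb-Cre libraries, against 129.5, 98.0 and 57.4 CPM in Il17ra-Cre and 53.4, 92.7, 51.8 and 79.0 CPM in Il17rc-Cre libraries. Dnajb9, which hands IRE1 to BiP, had 15.5, 14.5 and 15.1 CPM in Il17rb-Cre libraries, against 31.4, 19.9 and 26.3 CPM in Il17ra-Cre and 19.5, 26.6, 27.4 and 25.6 CPM in Il17rc-Cre libraries. Dnajb11, a BiP cochaperone that can also be secreted, had 53.7, 55.3 and 57.1 CPM in Il17rb-Cre libraries, against 97.8, 84.7 and 72.4 CPM in Il17ra-Cre and 50.5, 71.8, 69.9 and 68.5 CPM in Il17rc-Cre libraries. Il17rb-Cre libraries were the 3 lowest for Dnajc3 and Dnajb9, and Il17rc-Cre replicate 1 was lowest for Dnajb11. Dnajc3 was lower at a log2 fold change of -2.13 ± 0.33 (SE, adjusted p = 0.000683) against Il17ra-Cre and -1.68 ± 0.31 (SE, adjusted p = 0.00187) against Il17rc-Cre, and at -1.40 (adjusted p = 0.0184) against Il17ra-Cre without that group's replicates 1 and 2. Dnajb9 was lower at log2 fold changes of -0.79 ± 0.20 (SE, adjusted p = 0.012) against Il17ra-Cre and -0.72 ± 0.19 (SE, adjusted p = 0.0141) against Il17rc-Cre. Its call against Il17rc-Cre was lost in both edgeR fits with the replicate number as a block (adjusted p up to 0.07). Dnajb11 was lower at a log2 fold change of -0.62 ± 0.17 (SE, adjusted p = 0.0165) against Il17ra-Cre, which did not pass when Il17ra-Cre replicate 1 (-0.49) or Il17rb-Cre replicate 1 or 2 was left out (adjusted p 0.0559 to 0.0628).

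Sdf2l1, Manf and Creld2 are ER proteins whose mRNA is known to be induced by ER stress. Sdf2l1, which acts with BiP and its J proteins, had 27.6, 24.0 and 30.0 CPM in Il17rb-Cre libraries, against 106, 77.8 and 50.1 CPM in Il17ra-Cre and 13.9, 30.3, 16.4 and 27.7 CPM in Il17rc-Cre libraries. Manf had 31.0, 35.5 and 31.1 CPM in Il17rb-Cre libraries, against 102, 65.7 and 72.5 CPM in Il17ra-Cre and 35.6, 72.3, 49.1 and 63.3 CPM in Il17rc-Cre libraries. Creld2 had 19.5, 21.8 and 19.6 CPM in Il17rb-Cre libraries, against 124, 95.7 and 51.3 CPM in Il17ra-Cre and 22.0, 35.9, 29.5 and 40.0 CPM in Il17rc-Cre libraries. The 3 Il17ra-Cre libraries were the highest for Sdf2l1 and Creld2, and Il17rb-Cre libraries were below all Il17ra-Cre libraries for all of them. Against Il17ra-Cre, Il17rb-Cre was lower at a log2 fold change of -1.52 ± 0.34 (SE, adjusted p = 0.00583) for Sdf2l1, -1.30 ± 0.27 (SE, adjusted p = 0.0034) for Manf and -2.16 ± 0.32 (SE, adjusted p = 0.0006) for Creld2. Against Il17rc-Cre only Manf of these passed edgeR's main test, at a log2 fold change of -0.76 ± 0.25 (SE, adjusted p = 0.034), and that call was lost without each Il17rb-Cre replicate and without Il17rc-Cre replicate 2 (-0.60) or 4 (-0.69), with adjusted p 0.0579 to 0.0867. Voom called Sdf2l1 against Il17rc-Cre, and edgeR called Creld2 there in the fit of only those groups, without Il17ra-Cre replicate 3 and without replicates 1 and 2 of that group. Without Il17ra-Cre replicates 1 and 2, Creld2 was -1.33 (adjusted p = 0.0142) and Sdf2l1 -0.87 (adjusted p = 0.176) against Il17ra-Cre.

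Herpud1 (ENSMUSG00000031770, chr8:94386438-94395377), an ER membrane protein of ER-associated degradation, differed in the opposite direction. Herpud1 had 131, 138 and 139.5 CPM in Il17rb-Cre libraries, against 91.1, 63.1 and 87.6 CPM in Il17ra-Cre and 68.1, 62.6, 67.3 and 71.7 CPM in Il17rc-Cre libraries. The 3 Il17rb-Cre libraries were the highest of all. It was higher by a log2 fold change of 0.76 ± 0.16 (SE, adjusted p = 0.00375) against Il17ra-Cre and 1.02 ± 0.15 (SE, adjusted p = 0.000446) against Il17rc-Cre, and kept both calls in every alternative run. All 7 members with the ER stress element were lower in Il17rb-Cre than in Il17ra-Cre, as were 15 of the 16 ER members with or without it. Against Il17rc-Cre only Hspa5, Canx and Dnajc3 of the 7 passed. Against Il17ra-Cre, of the pair with ER stress element II, Dnajb11 was lower and Herpud1 higher.

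**Figure D4:**
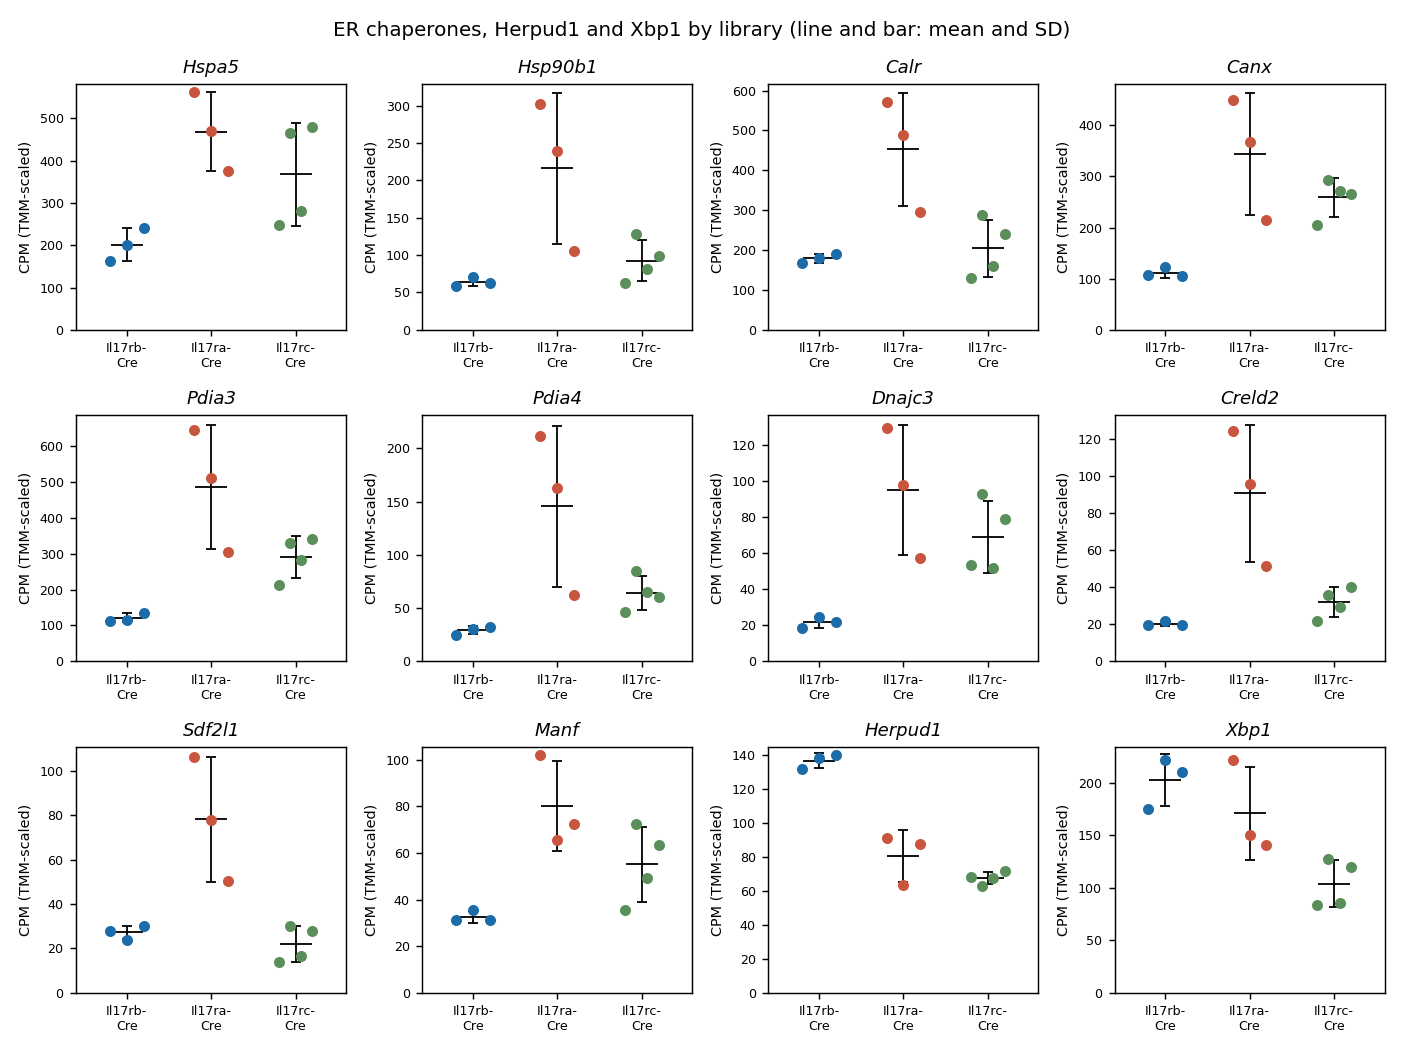
CPM of 10 ER chaperones, Herpud1 and Xbp1 by library, points being libraries and lines and bars the mean and SD of each driver, each panel with its own axis starting at 0. Il17rb-Cre libraries lie at the bottom for Hspa5, Canx, Pdia3, Dnajc3 and Creld2 and at the top for Herpud1 (131 to 139.5 CPM, against 63.1 to 91.1 CPM in Il17ra-Cre and 62.6 to 71.7 CPM in Il17rc-Cre libraries).

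The 3 sensors of ER stress did not pass edgeR's test in any comparison. Ern1, which encodes IRE1α, ranged over 1.28 to 7.06 CPM, Eif2ak3, which encodes PERK, over 4.09 to 17.9 CPM and Atf6 over 14.6 to 33.6 CPM in the 10 libraries. The lowest adjusted p was 0.0677 for Ern1 in Il17rb-Cre against Il17ra-Cre. DESeq2, limma voom and edgeR without Il17ra-Cre replicate 3 called Ern1 there, and edgeR called it against Il17rc-Cre when only those groups were fitted or Il17ra-Cre replicates 1 and 2 were left out. Voom called Atf6 in Il17rb-Cre against Il17rc-Cre and in Il17ra-Cre against Il17rc-Cre, and upper quartile scaling and leaving out Il17rc-Cre replicate 2 also gave the first of these. Eif2ak3 was called in no setting run. Eif2ak3 was lowest in Il17rb-Cre replicate 1 (4.09 CPM, against 13.9 and 11.7 CPM in replicates 2 and 3). A p that misses the threshold does not show that their levels were alike.

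Of the transcription factors downstream of the sensors, Xbp1 and Ddit3 passed in opposite directions. Xbp1, whose mRNA IRE1 splices, had 175, 222 and 210.5 CPM in Il17rb-Cre libraries, against 222, 150 and 141 CPM in Il17ra-Cre and 84.0, 127, 85.1 and 119 CPM in Il17rc-Cre libraries. Ddit3, CHOP, a factor of prolonged stress, had 81.3, 51.9 and 71.3 CPM in Il17rb-Cre libraries, against 119, 84.4 and 115 CPM in Il17ra-Cre and 97.9, 114, 93.1 and 127 CPM in Il17rc-Cre libraries. Xbp1 counts do not tell spliced and unspliced mRNA apart. Xbp1 was higher by a log2 fold change of 0.96 ± 0.22 (SE, adjusted p = 0.00573) against Il17rc-Cre, by 0.67 (adjusted p = 0.078) without Il17rc-Cre replicates 1 and 3, and overlapped between Il17rb-Cre and Il17ra-Cre (adjusted p = 0.433). Ddit3 was lower at a log2 fold change of -0.64 ± 0.21 (SE, adjusted p = 0.0347) against Il17ra-Cre and -0.67 ± 0.20 (SE, adjusted p = 0.0235) against Il17rc-Cre. The first of these did not pass when Il17ra-Cre replicate 1 or 3, or replicate 2 or 3 of Il17rb-Cre, was left out (adjusted p 0.0656 to 0.127). The other did not pass when replicate 2 of Il17rb-Cre, or 2 or 4 of Il17rc-Cre, was left out (adjusted p 0.0503 to 0.0749). Atf4, the factor translated under PERK signalling, ranged over 144 to 247 CPM and did not pass in any comparison or setting run.

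Il17ra-Cre against Il17rc-Cre gave 4 calls among the members, Hsp90ab1, Hsp90aa1, Sdf2l1 and Creld2, all higher in Il17ra-Cre. Sdf2l1 was higher by a log2 fold change of 1.82 ± 0.32 (SE, adjusted p = 0.0375) and Creld2 by 1.50 ± 0.29 (SE, adjusted p = 0.0389). Groups did not overlap for the 4 genes, yet each call was lost without any 1 library other than Il17ra-Cre replicate 3 and Il17rc-Cre replicate 2. The adjusted p in those fits ran between 0.0599 and 0.153, and between 0 and 13 of all genes were called higher in them. Without Il17ra-Cre replicate 3, 17 members were higher. Calls over all genes rose too in that fit, to 1541 higher and 1345 lower (main fit 281 and 162). Without replicates 1 and 2 of that group, the log2 fold changes of the 4 called genes ran between 0.46 (Hsp90ab1) and 1.12 (Sdf2l1). Among the ER members the median log2 fold change in the main fit was 0.67, beside 0.03 over all genes. An unadjusted p under 0.05 was found for 11 of these 16, and for 3730 of the 20301 genes tested. Hspa1b had adjusted p = 0.0894 and Calr 0.0696, with groups that did not overlap. DESeq2 called 6 further members, among them Hspa1b and Calr, and voom 22. Over all genes DESeq2 called 978 higher and 1123 lower, and voom 2716 and 1863. Oligodendrocyte and microglial markers differed in the same direction (10 and 6 of 12 higher), and their part was not tested.

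**Figure D5:**
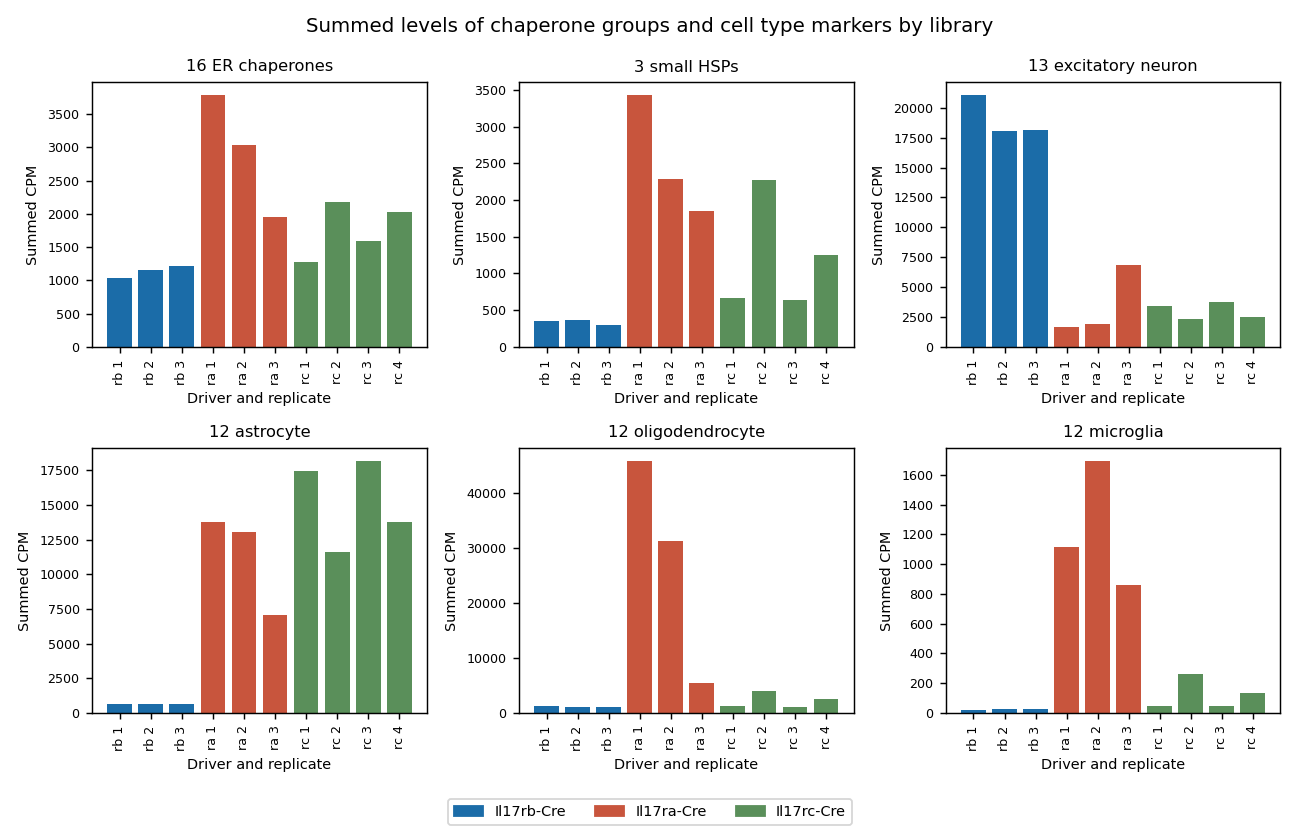
Bars are summed CPM per library of 16 ER chaperones, 3 small heat shock proteins and the markers of 4 cell types, grouped by driver, each panel with its own axis starting at 0. Excitatory neuron markers are highest in the 3 Il17rb-Cre libraries (18040 to 21070 CPM) and oligodendrocyte markers in Il17ra-Cre replicates 1 and 2 (45910 and 31380 CPM).

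Levels of different genes were compared per kilobase of exon. Cryab, Hsp90ab1, Hspa8 and Hsp90aa1 took the 4 highest ranks of the 45 in every group, though in different order. Hsp90ab1 ranked highest in Il17rb-Cre, with 702 CPM per kb in Il17rb-Cre, 790.1 CPM per kb in Il17ra-Cre and 442 CPM per kb in Il17rc-Cre libraries. Cryab ranked 4 in Il17rb-Cre and highest in the other groups, with 227 CPM per kb in Il17rb-Cre, 1575 CPM per kb in Il17ra-Cre and 672 CPM per kb in Il17rc-Cre libraries. Hspb1 ranked 44 in Il17rb-Cre, 24 in Il17ra-Cre and 14 in Il17rc-Cre, with 0.695 CPM per kb in Il17rb-Cre, 44.0 CPM per kb in Il17ra-Cre and 70.8 CPM per kb in Il17rc-Cre libraries. Ern1 ranked last in all 3 groups. Summed over the 45 members, levels were 10340, 10110 and 10910 CPM in Il17rb-Cre, against 17040, 14710 and 12010 CPM in Il17ra-Cre and 7917, 11550, 8230 and 10510 CPM in Il17rc-Cre libraries, so that Il17rb-Cre and Il17rc-Cre overlapped.

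Of 138 other genes of these pathways 132 were tested. Against Il17ra-Cre 49 were lower and 19 higher in Il17rb-Cre, and against Il17rc-Cre 38 lower and 28 higher, with median log2 fold changes of -0.33 and -0.12. Over all genes 24.4% were lower and 16.4% higher against Il17ra-Cre, and 21.9% lower and 17.7% higher against Il17rc-Cre, shares near those of this list against Il17rc-Cre. HSP70 and HSP90 cochaperones (20 genes) were called 8 higher and 3 lower against Il17ra-Cre, and 13 higher and 1 lower against Il17rc-Cre. Among them Stub1, a ubiquitin ligase that takes clients from HSP70, had log2 fold changes of 1.56 ± 0.28 (SE, adjusted p = 0.00183) against Il17ra-Cre and 1.20 ± 0.26 (SE, adjusted p = 0.00463) against Il17rc-Cre, and Bag5, an exchange factor, 0.70 ± 0.15 (SE, adjusted p = 0.00427) against Il17ra-Cre and 0.71 ± 0.14 (SE, adjusted p = 0.00259) against Il17rc-Cre. Sil1, the exchange factor of BiP in the ER, was lower at a log2 fold change of -1.56 ± 0.22 (SE, adjusted p = 0.000419) against Il17ra-Cre and -1.31 ± 0.21 (SE, adjusted p = 0.000799) against Il17rc-Cre. Of 16 other J proteins 4 were higher and 4 lower against Il17ra-Cre, and 5 higher and 1 lower against Il17rc-Cre. Dnajc5, the synaptic vesicle J protein CSPα, was higher by a log2 fold change of 0.86 ± 0.17 (SE, adjusted p = 0.00241) against Il17ra-Cre and 0.89 ± 0.15 (SE, adjusted p = 0.00123) against Il17rc-Cre. Dnajc6, auxilin, which recruits HSP70 to clathrin coats, was higher by a log2 fold change of 0.97 ± 0.20 (SE, adjusted p = 0.00345) against Il17ra-Cre and 1.29 ± 0.18 (SE, adjusted p = 0.000436) against Il17rc-Cre. Of the 5 heat shock factors, Hsf4 was higher by a log2 fold change of 1.94 ± 0.43 (SE, adjusted p = 0.0054) against Il17ra-Cre and 2.19 ± 0.40 (SE, adjusted p = 0.00169) against Il17rc-Cre. Hsf1, the main heat shock factor, was higher by a log2 fold change of 0.64 ± 0.21 (SE, adjusted p = 0.0314) against Il17ra-Cre and did not pass against Il17rc-Cre.

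Genes of ER-associated degradation (17 tested) were 9 lower and 1 higher in Il17rb-Cre in each comparison. This is 58.8% called, beside 40.7% of all genes against Il17ra-Cre and 39.7% against Il17rc-Cre. Edem1, a lectin that directs glycoproteins to degradation, had 5.97, 7.57 and 4.62 CPM in Il17rb-Cre libraries, against 90.0, 74.0 and 39.6 CPM in Il17ra-Cre and 23.5, 60.0, 43.4 and 60.6 CPM in Il17rc-Cre libraries. The Il17rb-Cre libraries were the lowest, with log2 fold changes of -3.49 ± 0.43 (SE, adjusted p = 0.000199) against Il17ra-Cre and -2.95 ± 0.41 (SE, adjusted p = 0.000347) against Il17rc-Cre, and Derl2, an ER channel component, was lower at a log2 fold change of -1.93 ± 0.23 (SE, adjusted p = 0.000177) against Il17ra-Cre and -1.64 ± 0.22 (SE, adjusted p = 0.000311) against Il17rc-Cre. Ube2j1, an ER ubiquitin-conjugating enzyme, was higher by a log2 fold change of 0.65 ± 0.16 (SE, adjusted p = 0.00905) against Il17ra-Cre and 0.49 ± 0.15 (SE, adjusted p = 0.0238) against Il17rc-Cre. Of 27 genes of oxidative folding and ER entry, 11 were lower and 2 higher against Il17ra-Cre, and 9 lower and 5 higher against Il17rc-Cre. The shares called were 48.1% and 51.9%, beside the same 40.7% and 39.7% of all genes. P4hb, the main disulfide isomerase, was lower at a log2 fold change of -2.53 ± 0.38 (SE, adjusted p = 0.00059) against Il17ra-Cre and -1.34 ± 0.34 (SE, adjusted p = 0.0114) against Il17rc-Cre, and Ssr3, a translocon-associated subunit, at -1.92 ± 0.24 (SE, adjusted p = 0.000222) against Il17ra-Cre and -1.62 ± 0.23 (SE, adjusted p = 0.000391) against Il17rc-Cre. Hspb6, a further small heat shock protein, had 11.2, 11.9 and 8.21 CPM in Il17rb-Cre libraries, against 183, 155 and 113 CPM in Il17ra-Cre and 98.1, 229, 108 and 132 CPM in Il17rc-Cre libraries. It was lower at a log2 fold change of -3.85 ± 0.36 (SE, adjusted p = 4.51e-05) against Il17ra-Cre and -3.76 ± 0.35 (SE, adjusted p = 3.28e-05) against Il17rc-Cre, like the 3 small heat shock proteins among the members. Of the 12 other HSP70 and small heat shock genes tested, 3 were lower against each group, and 1 (Hspb3) was higher against Il17rc-Cre; the share called in either direction against Il17ra-Cre, 25.0%, was below the 40.7% of all genes. Trap1, the mitochondrial HSP90, was lower at a log2 fold change of -1.32 ± 0.28 (SE, adjusted p = 0.0039) against Il17ra-Cre and -1.16 ± 0.26 (SE, adjusted p = 0.0059) against Il17rc-Cre. Of 8 subunits of the chaperonin TRiC, 2 were lower against Il17ra-Cre (Cct3 and Cct4) and 1 against Il17rc-Cre (Cct3), and 0 were higher. These are 25.0% and 12.5%, beside 24.4% and 21.9% of all genes lower and 40.7% and 39.7% called in either direction. Of 7 regulators of the ATF6 and XBP1 arms 2 were lower in each comparison, Creb3l1 and Creb3l2, both ER-anchored relatives of ATF6. The share called in either direction, 28.6% in each, was below the 40.7% of all genes against Il17ra-Cre and 39.7% against Il17rc-Cre. All of it was lower, where 24.4% and 21.9% of all genes were lower. Creb3l1 had log2 fold changes of -1.86 ± 0.29 (SE, adjusted p = 0.000813) against Il17ra-Cre and -2.28 ± 0.29 (SE, adjusted p = 0.000199) against Il17rc-Cre, and Creb3l2 of -3.13 ± 0.52 (SE, adjusted p = 0.00108) against Il17ra-Cre and -1.71 ± 0.47 (SE, adjusted p = 0.0165) against Il17rc-Cre.

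The integrated stress response, the arm that PERK shares with other kinases, had 20 genes. Of these 15 were lower and 2 higher in Il17rb-Cre against Il17ra-Cre, and 12 lower and 2 higher against Il17rc-Cre. Over all genes 24.4% were lower and 16.4% higher against Il17ra-Cre, and 21.9% and 17.7% against Il17rc-Cre. Psat1, an ATF4 target of serine synthesis, had 42.5, 37.0 and 45.2 CPM in Il17rb-Cre libraries, against 655, 468 and 246 CPM in Il17ra-Cre and 294, 426, 265 and 329.6 CPM in Il17rc-Cre libraries. Slc3a2, an ATF4 target of amino acid transport, had 85.6, 102 and 105 CPM in Il17rb-Cre libraries, against 208, 179 and 217 CPM in Il17ra-Cre and 323, 378, 339 and 395 CPM in Il17rc-Cre libraries. Ppp1r15a, GADD34, which reverses the PERK signal, had 34.0, 43.0 and 37.5 CPM in Il17rb-Cre libraries, against 76.8, 60.7 and 97.3 CPM in Il17ra-Cre and 183, 272, 166 and 264 CPM in Il17rc-Cre libraries. Il17rb-Cre libraries were the lowest for all of them. Psat1 was lower at a log2 fold change of -3.46 ± 0.34 (SE, adjusted p = 6.07e-05) against Il17ra-Cre and -2.98 ± 0.33 (SE, adjusted p = 8.83e-05) against Il17rc-Cre, and Ppp1r15a at -1.04 ± 0.24 (SE, adjusted p = 0.00683) against Il17ra-Cre and -2.54 ± 0.24 (SE, adjusted p = 4.08e-05) against Il17rc-Cre. Eif2ak2, the kinase PKR, was lower at a log2 fold change of -2.72 ± 0.25 (SE, adjusted p = 4.07e-05) against Il17ra-Cre, and Slc7a11, a cystine transporter, at -1.92 ± 0.28 (SE, adjusted p = 0.000532) against Il17ra-Cre and -3.06 ± 0.28 (SE, adjusted p = 3.1e-05) against Il17rc-Cre. Asns, a further ATF4 target, was higher by a log2 fold change of 1.19 ± 0.31 (SE, adjusted p = 0.0112) against Il17ra-Cre and 0.89 ± 0.28 (SE, adjusted p = 0.0295) against Il17rc-Cre. Psat1 is also known as a gene of astrocytes, whose 12 markers were lower in the same libraries. In Il17ra-Cre against Il17rc-Cre the list gave 3 lower calls, where 0.798% of all genes were lower. Among the 3 were Ppp1r15a and Slc3a2, with log2 fold changes of -1.50 ± 0.23 (SE, adjusted p = 0.0284) for Ppp1r15a and -0.83 ± 0.14 (SE, adjusted p = 0.0375) for Slc3a2. In the same comparison Ppid, an HSP90 cochaperone, was higher by a log2 fold change of 0.55 ± 0.11 (SE, adjusted p = 0.0411). Calls in this comparison were not steady. Fits without 1 library gave 0 to 22 genes higher and 0 to 12 lower over all the wider lists. The fit of only these groups called 0 higher and 1 lower over all genes.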

How the data were processed

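Ribosome-bound RNA was measured in 10 libraries. The authors deposited raw counts per gene in a single table, aligned with STAR 2.7.5c to GRCm38 per the submitters' processing notes. The sources used here do not name the counting tool, strand setting, trimming or annotation release. Groups came from the Cre driver in the labels. Every row had a symbol and coordinates in GENCODE M21 (GRCm38). After TMM scaling, edgeR 4.0.16 (R 4.3.3) fitted 1 quasi-likelihood model to all 10 libraries, with each pair of drivers as a contrast and Benjamini-Hochberg adjustment at 0.05 over the 20301 genes that filterByExpr kept (35235 were removed). edgeR's common dispersion came to 0.239 (coefficient of biological variation 0.489). The procedure was tested on simulated data. Depth ran between 39692925 and 165844244 counts per library, which limits genes of a few CPM most.

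The members and gene lists were chosen with earlier results of these data known. All 45 members could be named, with values per library for those past the threshold in at least 1 comparison or with a library more than 3 times from every other of its group, and ranges for the others; from each wider list, genes came from the 2 smallest p-values in each direction, and lists of markers are given by sums and counts. Alternatives were DESeq2 1.42.0, limma 3.58.1 voom with quality weights, other scalings and filters, fits of only the 2 groups compared, fits with the replicate number as a block, and fits without 1 library or without 2 libraries of a group. Same-numbered libraries did not steadily deviate together, and the block was not used in the main result. Promoters came from RefSeq (GRCm38.p6), and shared sequence was counted in stretches of 50 bases of GENCODE transcripts.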

Additional observations from a re-analysis of the deposited data

Results flagged for a closer look

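In the 4 Il17rc-Cre libraries, 45 members were checked for 1 library far from the other 3, by the gap to the nearest library over the whole range of the group and 2 were past the 95% critical value of Dixon's test for 4 samples. Chance flags about 1 in 20 groups, and 2 of 45 is near that share. Dnajb11, the BiP cochaperone, had 50.47 CPM in Il17rc-Cre replicate 1, against 68.5 to 71.84 CPM in the other 3 libraries (gap over range 0.844). Atf4, the factor of the integrated stress response, had 238.3 CPM in Il17rc-Cre replicate 4, against 160.6 to 172.9 CPM in the others (0.841).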

How the results depend on the processing

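No called member changed sign in any setting run, and of the 31, 27 and 4 calls in Il17rb-Cre against Il17ra-Cre, Il17rb-Cre against Il17rc-Cre and Il17ra-Cre against Il17rc-Cre, 17, 15 and 0 kept their side of the threshold in all of them. Leaving out 1 library gave 4 to 6 members higher and 22 to 26 lower in Il17rb-Cre against Il17ra-Cre, 8 to 13 higher and 10 to 16 lower against Il17rc-Cre, and 0 to 17 higher and 0 to 1 lower in Il17ra-Cre against Il17rc-Cre; the wider pathway gave 15 to 26 and 40 to 55, 14 to 31 and 33 to 45, and 0 to 22 and 0 to 12. Without Il17ra-Cre replicates 1 and 2, where the lone library is assumed to vary like the other groups, Il17rb-Cre against Il17ra-Cre had 3 members higher and 15 lower and 4 and 30 wider genes. Without Il17rc-Cre replicates 1 and 3, Il17rb-Cre against Il17rc-Cre had 6 members and 15 wider genes higher. Voom called 32 wider genes higher against Il17ra-Cre, and dropping the filter left 17 higher against Il17rc-Cre. In Il17ra-Cre against Il17rc-Cre, DESeq2 called 10 members and 11 wider genes higher and 8 wider genes lower, voom 26, 34 and 11; dropping the filter left 2 members and 0 wider genes higher, DESeq2 size factors in edgeR left 0 wider genes higher, and a filter at 1 CPM gave 5 wider genes lower. Fits of only these groups, both blocks and both fits without a pair of libraries gave 0 in all 3 of these counts. Same-numbered libraries correlated between -0.308 and 0.326, which shows no steady pairing by these numbers but cannot exclude one. With the title numbers as a replicate block, 4 members were higher and 25 lower in Il17rb-Cre against Il17ra-Cre, and 10 and 9 against Il17rc-Cre, with 17 wider genes higher; with library numbers as a block 4 and 24, and 8 and 12, with 16. The Dnajb9 call against Il17rc-Cre was past the threshold in neither block (adjusted p = 0.0592 and 0.07). Upper quartile scaling moved the median of all genes in Il17rb-Cre against Il17ra-Cre to 0.041 (main -0.092) and against Il17rc-Cre to 0.127 (main 0.023), with 5 members higher and 24 lower, and 13 and 13. Voom also put the log2 fold change of Cryab against Il17rc-Cre at -0.92 and of Hspa5 at -0.50 (adjusted p = 0.0506). In Il17ra-Cre against Il17rc-Cre, calls over all genes moved as well, to 978 higher and 1123 lower with DESeq2 and 2716 and 1863 with voom. The causes were not tested. Depth limits genes of a few CPM, such as Hspb1 in Il17rb-Cre.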
